A study of Mus musculus with 8 samples.

Results

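Conventional dendritic cells were described among single cells of the mouse heart after sham surgery or ischaemia and reperfusion (IR). Of 20159 deposited cell barcodes, 19637 held at least 200 detected genes and at most 30% mitochondrial transcripts, and 131 of these were taken as conventional dendritic cells by their own transcript counts. A barcode was taken where Cd74, H2-Aa, H2-Ab1 and H2-Eb1 together gave at least 1% of its unique molecular identifiers (UMIs, each standing for 1 captured transcript). It also had to hold at least 2 UMIs of Cd209a or at least 1 UMI of Flt3, Xcr1 or Clec9a. Complement C1q genes had to stay under 0.2% and S100a8 plus S100a9 under 2% of its UMIs, with at most 1 UMI of Cd79a, Cd79b and Ms4a1 together and none of Cd3e. The cells were thus chosen by the measured values of these genes, whose levels are given only as a description.

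Male C57BL/6 mice underwent sham surgery or ligation of the left anterior descending artery followed by reperfusion, and left ventricular tissue of 3 hearts was pooled for each sample and dissociated with enzymes. Single-cell 3′ libraries were labelled IR0h, here called sham, and IR6h, here called IR, with 4 labelled samples each. The titles give 0 h and 6 h, while the protocol and the study's methods place both groups at 6 h after surgery, a difference that was not settled. The deposited counts pooled all samples of a condition without a mark of origin, so each condition was 1 library with no replicate, no test between conditions was possible, and all 95% intervals below cover counting error only. The labels name no transgene or deletion.

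Conventional dendritic cells take up antigen, display it on MHC class II molecules and carry it to T cells in the draining lymph node. They arise from a bone marrow precursor that depends on the cytokine receptor FLT3. The cDC1 branch is specialised in showing material from dead cells on MHC class I and carries XCR1 and CLEC9A, a receptor for exposed actin filaments. The cDC2 branch is marked by SIRPA and CD11b, and mainly activates CD4 T cells. In tissue, contact with danger signals makes dendritic cells mature, a state with less uptake, more costimulatory molecules, and CCR7, the receptor that guides them to lymph nodes.

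The sham library held 58653308 UMIs in 11620 barcodes and the IR library 75033226 in 8539 barcodes. The libraries shared 30 barcode sequences, among them 1 dendritic cell of each library. The sham dendritic cells had a median of 7764.5 UMIs (1458 to 19314) and the IR dendritic cells a median of 13419 (2901 to 34403), so the IR cells were counted more deeply. A median of 2150 genes was detected in a sham dendritic cell and 3015 in an IR one. The limit of 2500 genes in the study's own filter, not used here, would keep 11 of 67 IR dendritic cells, since 56 (83.6%) lay above it, against 17 of 64 (26.6%) in the sham library. Mitochondrial transcripts took a median of 2.27% of UMIs in sham and 4.40% in IR dendritic cells, and whether this share moved any result below was not tested. Several results that change with depth are given with their thinned values or with the limit of 2500 genes. Counts of cells given without a thinned value are not corrected for depth.

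Dendritic cells were rare in both libraries. They numbered 64 of 11377 passing barcodes (0.563%, exact binomial interval 0.433 to 0.718) in the sham library and 67 of 8260 (0.811%, 0.629 to 1.03) in the IR library. Among barcodes with Ptprc, the leukocyte antigen CD45, they were 60 of 5268 (1.14%, 0.870 to 1.46) and 66 of 5515 (1.20%, 0.927 to 1.52), and these intervals overlapped almost fully. The share of leukocytes that were conventional dendritic cells therefore differed by less than counting error with no upper limit of genes. With the limit of 2500 genes, 47 sham and 11 IR dendritic cells remained, 0.481% and 0.225% of passing barcodes, so the order of the shares turned. Loss of other cells and gain of dendritic cells cannot be told apart in such shares.

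The label was checked against dendritic cell genes that the rule did not use. Zbtb46, the transcription factor particular to conventional dendritic cells among myeloid cells, was at 25.5 CPM in sham dendritic cells and 1.51 CPM in MHC class II macrophages, taken as barcodes with at least 0.5% C1q and 1% MHC class II UMIs. Dpp4, the peptidase CD26, was at 72.7 against 1.82 CPM, and Bcl11a, a lymphoid and dendritic cell factor, at 54.6 against 0.873 CPM. Csf1r, the receptor for the macrophage growth factor, went the other way, at 90.9 CPM in sham dendritic cells and 777 CPM in macrophages, and so did Fcgr1, an antibody receptor, at 52.7 and 448 CPM. Of the dendritic cell core list, 8 of 11 tested genes were higher by at least 1 on the log2 scale than in these macrophages in sham, where 7.63% of all genes were, and 6 of 10 in IR, where 9.67% were. Monocytes were taken as barcodes with at least 2 UMIs of Ly6c2 and a UMI of Csf1r or Ccr2. They also had to hold under 1% MHC class II and under 0.2% C1q UMIs. Under 2 UMIs of Cd209a were allowed, and none of Flt3, Xcr1 or Clec9a. Their low MHC class II was thus set by definition, which partly fixed the comparison. Against these monocytes 7 of 11 core genes were higher in sham (all genes 5.97%) and 7 of 10 in IR (all genes 6.12%). None was lower in these 4 comparisons. Against B cells, which share some of these genes, 6 of 13 were higher and 2 lower in sham (all genes 15.4% and 15.1%), and 7 of 13 higher and 3 lower in IR (all genes 21.4% and 16.6%). The cDC2 list did not set the cells apart from MHC class II macrophages, with 1 of 11 genes higher and 2 lower in sham (median log2 -0.46, all genes 10.6% lower) and 2 higher and 5 lower in IR (median -0.98, all genes 11.6% lower). Of the core genes higher than in macrophages, 5 of 8 in sham and 2 of 6 in IR were under 50 CPM in macrophages and passed the filter of a mean of 50 CPM only through the dendritic cells, as did 3 of 7 against monocytes in each library. Since the cells were chosen by their transcripts as well, these counts are a description and no support for the label.

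The edge of the selection was closer to the cells in the IR library. MHC class II transcripts took a median of 6.66% of UMIs (1.58 to 12.2) in sham dendritic cells and 4.16% (1.03 to 8.09) in IR ones. Barcodes that failed by MHC class II alone numbered 11 in the sham library, the nearest at 0.550%, and 120 in the IR library, the nearest at 0.846%. By contrast, 71 sham and 76 IR barcodes failed only for want of Cd209a, Flt3, Xcr1 or Clec9a. In 4 sham and 4 IR members a single UMI of Flt3, Xcr1 or Clec9a gave membership. Barcodes that failed only by C1q, the complement genes of resident macrophages, numbered 35 and 16.

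The cells were split into 2 arms, after the cDC1 and cDC2 branches, by genes that also gave membership. Nearly every cell had to fall in an arm, so the split itself is no finding. Cells with a UMI of Xcr1 or Clec9a are called the Xcr1/Clec9a arm here, and other cells with at least 2 UMIs of Cd209a the Cd209a arm. The Xcr1/Clec9a arm held 20 of 64 sham dendritic cells (31.3%, 20.2 to 44.1) and 19 of 67 IR cells (28.4%, 18 to 40.7). The Cd209a arm held 41 (64.1%, 51.1 to 75.7) and 43 (64.2%, 51.5 to 75.5), and 3 sham and 5 IR cells had Flt3 alone. Thinning each cell to 2000 UMIs left Xcr1 or Clec9a in 9 of 63 sham cells (14.3%, 6.75 to 25.4) and 10 of 67 IR cells (14.9%, 7.40 to 25.7). Thinning to 1000 UMIs left them in 7 of 64 (10.9%, 4.51 to 21.2) and 5 of 67 (7.46%, 2.47 to 16.6), the other order. Membership was set at full depth before thinning, so the depth gap in the choice of cells remains. The split between the arms was thus alike in the libraries, within intervals that still allow a wide difference.

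Genes outside the rule separated the arms along the same line, as the counts of both arms summed over their cells and given as CPM, counts scaled to a common total of UMIs, showed. Irf8, the transcription factor that cDC1 cells need, stood at 1288 CPM in the sham Xcr1/Clec9a arm and 37.7 CPM in the sham Cd209a arm. It stood at 1181 and 24.2 CPM in the IR arms. Single sham cells of the Xcr1/Clec9a arm held a median of 13 Irf8 UMIs (0 to 24), and those of the Cd209a arm a median of 0 (0 to 4), so the ranges met only at the low end. Naaa, a lysosomal amidase, stood at 932 against 208 CPM in the sham arms and 1126 against 211 CPM in the IR arms. Wdfy4, which cDC1 cells need for cross-presentation, stood at 337 against 53.5 CPM in sham and 365 against 56.5 CPM in IR. Cd24a, a surface marker of cDC1 cells, stood at 317 against 44.0 CPM in sham and 543 against 45.2 CPM in IR.

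On the other side stood the genes of cDC2 cells. Mgl2, a galactose-binding lectin also known as CD301b, was at 1208 CPM in the sham Cd209a arm and 4.95 CPM in the sham Xcr1/Clec9a arm. Sirpa was at 145 against 19.8 CPM in sham and 142 against 9.20 CPM in IR. Irf4, the transcription factor of cDC2 cells, was at 47.2 CPM against no UMI in sham and 96.9 against 6.14 CPM in IR. The tested members of the fixed cDC1 list were higher by at least 1 on the log2 scale in the Xcr1/Clec9a arm for 9 of 10 genes in sham and 10 of 10 in IR. Among all genes tested this held for 6.18% in sham and 6.34% in IR. The cDC2 list was lower there for 7 of 11 genes in sham and 9 of 13 in IR, where all genes gave 10.1% and 8.17%, and 1 cDC2 gene was higher in IR. The arms were cut by genes that travel with these lists, and 7 of the 9 sham and 7 of the 10 IR cDC1 genes were under 50 CPM in the Cd209a arm, so the counts describe the arms and support no finding. The plot of the arms shows these values gene by gene.

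**Figure D1:**
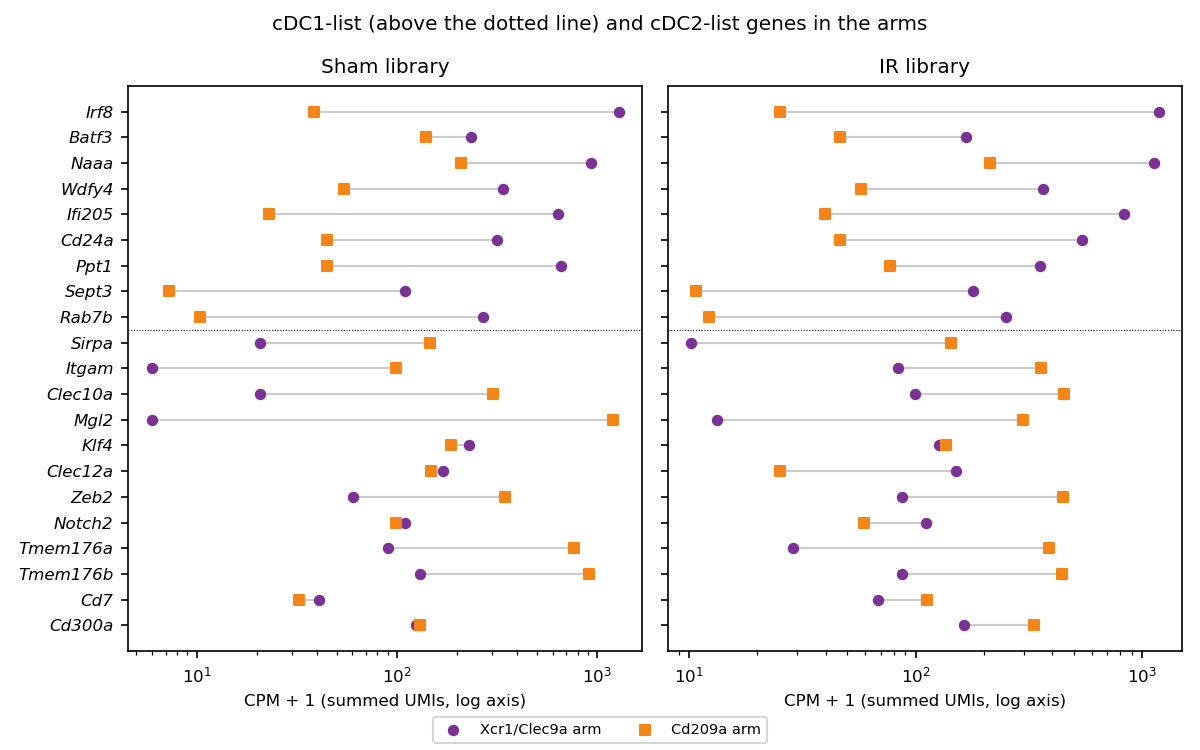
Summed level of cDC1-list and cDC2-list genes in the Xcr1/Clec9a arm (circles) and the Cd209a arm (squares) of the sham and IR libraries, as CPM + 1 on a log axis. The genes above the dotted line lie to the right in the Xcr1/Clec9a arm in both libraries, as for Irf8 at 1288 against 37.7 CPM in sham, and Mgl2 lies at 4.95 against 1208 CPM in sham.

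Among the genes with the highest ratios of the Xcr1/Clec9a arm to the Cd209a arm were further cDC1-list members, already in the counts above. Ifi205, an interferon-inducible gene of the PYHIN family, was at 634 against 22.0 CPM in sham (log2 4.85) and 832 against 38.7 CPM in IR (log2 4.42). Rab7b, a small GTPase of late endosomes, was at 268 against 9.44 CPM in sham and 249 against 11.3 CPM in IR. P2ry14, a receptor for UDP-sugars outside the list, was at 159 CPM in the sham and 135 CPM in the IR Xcr1/Clec9a arm, with no UMI in either Cd209a arm. Itgae, the integrin CD103 and a list member, was at 172 against 1.61 CPM in IR. Lower in the Xcr1/Clec9a arm were Tnip3, an inhibitor of NF-kB signalling, at 14.9 against 1110 CPM in sham, and Clec4b1, a lectin receptor, at 4.95 against 484 CPM. In IR the lower genes included Ccl9, a chemokine, at 39.9 against 1011 CPM, and Thbs1, thrombospondin 1, at 39.9 against 659 CPM.

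Monocyte genes separated the arms in the IR library. Lyz2, lysozyme of myeloid cells, was at 1769 CPM in the Xcr1/Clec9a and 1362 CPM in the Cd209a arm of the sham library, and at 669 and 4314 CPM in the IR library. Cd14, a coreceptor for bacterial lipopolysaccharide, was at 89.2 and 226 CPM in sham and at 196 and 1035 CPM in IR. Csf1r was at 79.3 and 78.6 CPM in sham and at 21.5 and 165 CPM in IR. Of the monocyte list, 6 of 7 tested genes were lower by at least 1 in the IR Xcr1/Clec9a arm (median log2 -2.17, all genes 8.17%), while in sham 2 of 6 were higher and none lower (median log2 0.47, all genes 6.18% and 10.1%). Of the 6 lower genes in IR, 4 passed the filter only through the Cd209a arm. Ly6c2, which marks monocytes, was at 773 and 258 CPM in sham and lower in both arms in IR, at 27.6 and 124 CPM. The Cd209a arm thus held more Lyz2, Cd14 and Csf1r but less Ly6c2 in IR, and whether monocyte-derived cells entered that arm was not tested.

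Sums over all dendritic cells were then compared between libraries for 2483 genes with a mean of at least 50 CPM. A gene was called where its log2 ratio of IR to sham CPM reached 1 in either direction. Of the genes, 245 (9.87%) were higher and 144 (5.8%) lower in IR, and the median over all genes was 0.06. In 8 of the higher and 8 of the lower genes, 1 cell held at least 50% of the UMIs in the library where the gene was higher. Such genes are named as single-cell values below. In sham 126 of the 245 higher genes, and in IR 86 of the 144 lower genes, were themselves under 50 CPM, so they passed the filter only through the library where they were high and had to differ.

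A subset of IR dendritic cells held Ccl17 and Ccl22. Ccl17, which draws CCR4-bearing T cells, had 27 UMIs in the sham dendritic cells (49.1 CPM) and 2600 in the IR dendritic cells (2624 CPM), a log2 ratio of 5.74 (5.20 to 6.34). It was detected in 6 of 64 sham and 19 of 67 IR cells. Per cell the sham values ran from 0 over a median of 0 to 20 UMIs, and the IR values from 0 over a median of 0 to 482 UMIs, so most cells of both libraries had none. After thinning to 2000 UMIs, 4.76% of sham and 22.4% of IR dendritic cells kept a Ccl17 UMI, against 0.165% of IR B cells. The gene lies on chr8:94810453-94812036 (+) of GRCm38.

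Both arms held such cells in IR. Ccl17 was found in 7 of 19 IR cells of the Xcr1/Clec9a arm, each with at least 5 UMIs, and in 12 of 43 of the Cd209a arm, 8 of them with at least 5. The median among those with at least 5 UMIs was 143 in the Xcr1/Clec9a arm and 155 in the Cd209a arm, a cut chosen after the values were seen that leaves out 4 positive cells of the Cd209a arm. In the sham library the Xcr1/Clec9a arm had none in 20 cells, and 1 Cd209a arm cell held 20 of the 27 UMIs. The sums were 0 and 3305 CPM in the sham and IR Xcr1/Clec9a arm, and 84.9 and 2459 CPM in the sham and IR Cd209a arm. MHC class II macrophages had 0.238 CPM in sham and 150 CPM in IR. Ly6c2 monocytes had 0.610 CPM and B cells 1.19 CPM in IR. Where only cells with at most 2500 genes were kept, the 11 IR cells held no Ccl17 UMI, so the difference rested on the deeper cells.

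Ccl22, the second ligand of CCR4, lies in the same chemokine cluster at chr8:94745590-94751699 (+). It had 5 UMIs in the sham dendritic cells (9.09 CPM) and 262 in the IR dendritic cells (264 CPM), a log2 ratio of 4.86 (3.62 to 6.50). It was detected in 4 sham and 13 IR cells, with up to 2 UMIs in a sham cell and up to 98 in an IR cell. It stood at 322 CPM in the IR Xcr1/Clec9a arm and 253 CPM in the IR Cd209a arm. After thinning, 3.17% of sham and 11.9% of IR dendritic cells kept a UMI, and no IR B cell did.

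AA467197, the mouse gene also known as Nmes1, had the highest ratio of the named genes, with 3 UMIs in the sham dendritic cells (5.46 CPM) and 1253 in the IR dendritic cells (1265 CPM). Its log2 ratio was 7.86 (6.31 to 10.14). It was detected in 2 of 64 sham and 33 of 67 IR cells, and the IR cells reached 241 UMIs where the sham cells reached 2. Thinning left it in 1.59% of sham and 38.8% of IR dendritic cells, against 2.15% of IR B cells. It was also more frequent in IR in the related classes, at 1.37% and 9.47% of Ly6c2 monocytes and 0.258% and 7.46% of MHC class II macrophages.

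Ccl22 and AA467197 lay largely in the cells with Ccl17. Of the 15 IR cells with at least 5 Ccl17 UMIs, 11 had Ccl22, and they held 257 of its 262 UMIs. All 15 had AA467197, with 998 of 1253 UMIs, while 18 of the other 52 cells had it with 255 UMIs. Ccr7 was in 7 of the 15 with 111 UMIs, 92 of them in 1 cell, and in 6 of the 52 with 29 UMIs. Bcl2a1b, a survival gene of the BCL2 family, was in 14 of the 15 with 570 UMIs and in 29 of the 52 with 377 UMIs. Genes with a wider spread were Il1b, in 15 of the 15 and 50 of the 52, and Cd40, in 7 of the 15 with 20 UMIs and 21 of the 52 with 40 UMIs. The anchor of at least 5 Ccl17 UMIs was chosen after its values were seen, the cells with more UMIs in all have more chance of each gene, and the joint counts are a description.

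**Figure D2:**
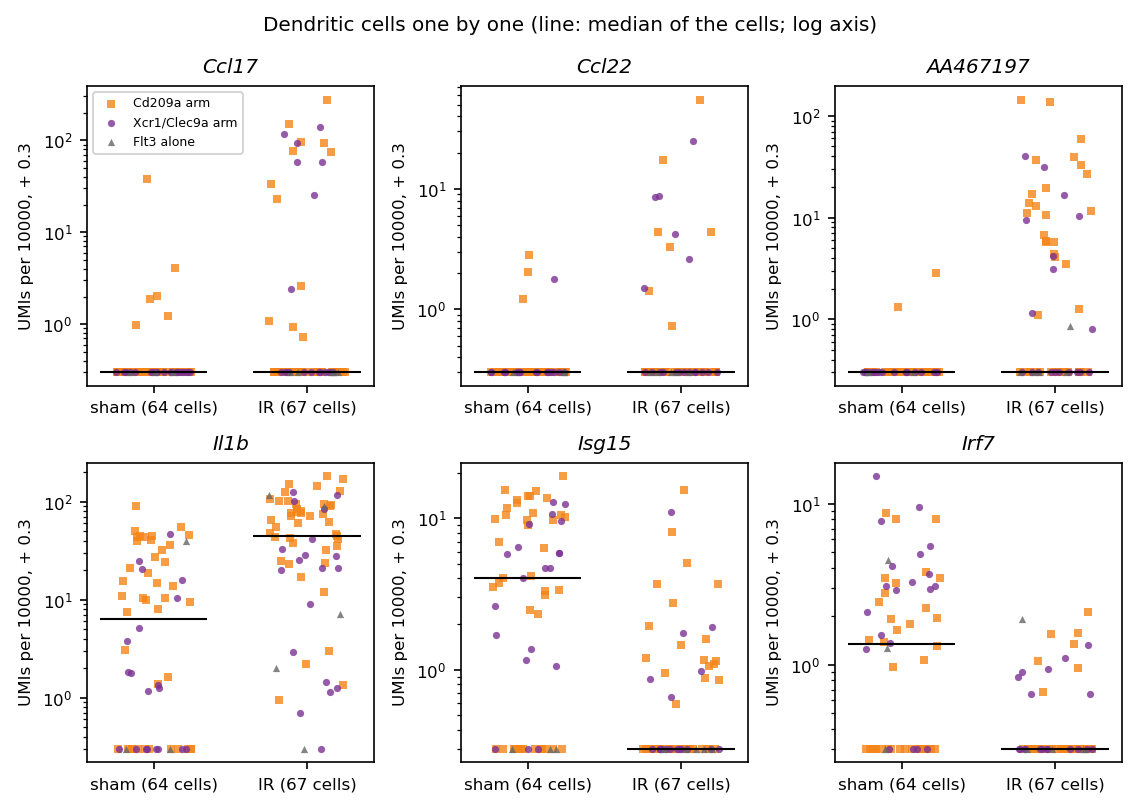
Per-cell levels in the dendritic cells of both libraries and both arms, as UMIs per 10000 of the cell's UMIs on a log axis with a small constant added, each point 1 cell and the line the median. Ccl17 is at 0 in most cells, with 19 of 67 IR cells above 0, while Il1b is above 0 in 65 of 67 IR cells.

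Of the other genes of dendritic cell maturation, few were counted deeply. In the mature dendritic cell list 7 of 20 genes reached the mean of 50 CPM, and 4 were higher and 1 lower in IR, with a median log2 of 1.57, where 9.87% of all genes were higher and 5.8% lower. Ccl17, Ccl22 and Ccr7 reached that mean only through the IR library, where they were high, so the filter partly fixed this count and median. The higher ones were Ccl17, Ccl22, Ccr7 and Samsn1, an adaptor protein at 60.0 and 178.6 CPM. Ccr7 had 3 sham and 140 IR UMIs, of which 1 IR cell held 65.7%, and B cells stood at 674 CPM in sham and 763 CPM in IR. Without the top cell of each library Ccr7 had no sham UMI and 48 IR UMIs. Ccl5, a chemokine, was lower at 111 and 40.4 CPM and passed the filter only through sham. With at most 2500 genes per cell the list's median turned to -0.34.

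In the costimulation list 3 of 7 tested genes were higher and 1 lower, with a median of 0.64, where 9.87% of all genes were higher and 5.8% lower. Pvr, the poliovirus receptor, passed the filter only through IR and the lower gene only through sham. Cd83, which stabilises MHC class II at the surface, was at 384 and 964 CPM (log2 1.33, 1.11 to 1.55). Cd86, a ligand of CD28, was at 94.6 and 211 CPM (1.16, 0.71 to 1.62). After thinning, Cd83 was in 44.4% of sham and 68.7% of IR dendritic cells, and in 45.4% and 58.7% of B cells. Cd86 was in 17.5% and 26.9% of dendritic cells, and in 17.1% and 25.1% of B cells. Cd40, which T cells engage, had 3 sham and 60 IR UMIs and fell under the mean of 50 CPM. After thinning, Cd40 was in 7.46% of IR dendritic cells and 7.26% of IR B cells, and Cd274, the ligand PD-L1, in 10.4% and 9.41%. In sham no thinned dendritic cell had Cd40 or Cd274, against 11.9% and 9.47% of B cells. B cells express Cd40 and Cd274 themselves and so give no background level for them. The part of background in the dendritic cell shares was not tested. Lgals9, galectin 9, was lower at 109 and 17.2 CPM (-2.67, -3.54 to -1.87).

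Few antigen presentation genes passed the limit of 1. Cd74, the invariant chain, stood at 28615 and 17344 CPM, and like H2-Aa, H2-Ab1 and H2-Eb1 it was part of the selection. Of 14 tested genes of the MHC class II pathway, 4 of them rule genes, 1 was lower by at least 1 and none higher, close to the 5.8% of all genes that were lower. It was H2-Oa, a brake on peptide exchange, at 145 and 53.5 CPM (-1.44, -1.97 to -0.92). The 10 tested genes outside the rule had a median of -0.46. Ciita, the master regulator of the pathway, was at 98.2 and 71.7 CPM (-0.45, -0.99 to 0.08). Lgmn, a lysosomal protease, was at 80.0 and 158 CPM (0.99, 0.50 to 1.5). For MHC class I, 2 of 16 were lower and none higher, H2-K1 at 1688 and 781 CPM (-1.11, -1.25 to -0.97) and Psmb9, an immunoproteasome subunit, at 360 and 154 CPM (-1.22, -1.54 to -0.91). The class I list's median was -0.66 in dendritic cells, -1.08 in MHC class II macrophages and -1.58 in Ly6c2 monocytes.

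Interferon-stimulated genes were the list with the most members lower by count, while the cell cycle list had 6 of 7 lower and a median of -1.82. Of 28 listed genes 15 were tested, none was higher and 10 were lower, with a median of -1.78, where 5.8% of all genes were lower. Of the 10, 7 were under 50 CPM in IR and passed the filter through sham, which partly fixed this count and median. Isg15, a ubiquitin-like modifier, had 290 UMIs in sham and 97 in IR dendritic cells (527 and 97.9 CPM), a log2 ratio of -2.43 (-2.78 to -2.09). Sham cells held a median of 3 UMIs (0 to 24) and IR cells a median of 0 (0 to 25), so the ranges overlapped although the IR cells were deeper. Irf7, the factor that amplifies interferon production, had 121 and 21 UMIs (220 and 21.2 CPM, log2 -3.38, -4.12 to -2.70) and was found in 37 of 64 and 15 of 67 cells. It lies on chr7:141262706-141266481 (-). Bst2, the antiviral membrane protein tetherin, was at 666 and 194 CPM (-1.78, -2.04 to -1.52).

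The 2 tested genes of the group above 0 were Cxcl10 and Ifi205. Cxcl10, an interferon-induced chemokine, was at 144 and 149 CPM (0.06, -0.35 to 0.47), and Ifi205 at 260 and 310 CPM (0.25, -0.04 to 0.55). Ifit2, which blocks translation of foreign RNA, had 35 UMIs in 20 sham cells and none in IR, but missed the mean of 50 CPM. Ifit3, its partner, had 79 and 18 UMIs (-2.98, -3.81 to -2.23), and 1 IR cell of the Xcr1/Clec9a arm held 94.4% of the IR UMIs, so that this arm alone gave 0.31, while without the top cell of each library the ratio was -6.96. Both arms had lower Isg15, by log2 -2.57 in the Xcr1/Clec9a and -2.39 in the Cd209a arm, and lower Irf7, by -3.90 and -2.86.

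The interferon-stimulated list was also lower in the other leukocyte classes compared here. In MHC class II macrophages 13 of 18 tested genes of the list were lower and none higher (median -2.20), where 6.09% of all genes were lower and 9.65% higher. In Ly6c2 monocytes 20 of 23 were lower and 1 higher (median -3.56, all genes 15% lower and 12.1% higher). In B cells 11 of 12 were lower and none higher (median -3.38, all genes 4.03% lower and 2.31% higher). Genes that passed the filter only through sham had to be lower. They were not counted in these 3 classes, for this or any other list, so the filter may partly fix these counts and medians. All 28 listed genes together, with no filter, took 0.589% of sham and 0.206% of IR UMIs in macrophages. The shares were 0.925% and 0.167% in monocytes and 0.385% and 0.0652% in B cells. Thinned to 2000 UMIs, Isg15 was in 46.0% of sham and 8.96% of IR dendritic cells, and in 28.1% and 1.65% of B cells. Ifnb1, interferon beta itself, had 16 UMIs in the sham and none in the IR dendritic cells, and missed the mean of 50 CPM.

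The promoters of Isg15, Ifit3 and Irgm1 are printed because they carry the element that the interferon-activated complex ISGF3 binds, in genes that were lower in IR. The search used GAAA, any 2 bases and GAAA again, on both strands with overlapping matches included, in RefSeq promoters of GRCm38.p6 from 250 bases before to 50 after the start. It matched 1131 of 32851 promoters (3.44%). Of the 15 tested genes of the list, 11 had a promoter in the table, and 8 of their 12 promoters (66.7%) held a match. Of the 10 lower genes 7 had a promoter, and 4 of 7 (57.1%) held a match. The windows below are the 160 bases up to 1 base before the start, read 5′ to 3′ on the gene's strand, with matches in capitals. They lie at chr4:156200819-156200978 (-) for Isg15, chr19:34583369-34583528 (+) for Ifit3 and chr11:48871421-48871580 (-) for Irgm1, an interferon-inducible GTPase.
Isg15: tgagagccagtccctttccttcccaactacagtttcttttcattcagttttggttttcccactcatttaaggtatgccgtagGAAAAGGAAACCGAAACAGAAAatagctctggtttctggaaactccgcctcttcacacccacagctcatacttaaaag
Ifit3: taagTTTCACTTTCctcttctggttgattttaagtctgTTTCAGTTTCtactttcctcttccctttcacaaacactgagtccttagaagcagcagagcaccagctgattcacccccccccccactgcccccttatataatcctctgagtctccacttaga
Irgm1: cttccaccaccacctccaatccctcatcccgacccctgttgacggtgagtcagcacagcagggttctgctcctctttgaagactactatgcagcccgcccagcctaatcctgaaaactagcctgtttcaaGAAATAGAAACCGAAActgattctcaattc

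In Isg15 the matches overlap from base -78 to base -57 before the start, in Ifit3 they are 2 separate ones between -156 and -113 on the opposite strand, and in Irgm1 2 overlapping ones lie from -30 to -15. Irgm1 was at 98.2 and 17.2 CPM (log2 -2.52, -3.40 to -1.71) and was found in 28 sham and 14 IR cells. The promoters of Irf7, Oasl2 and Xaf1, which were also lower, held no match in the window. A match describes letters and was not measured as binding.

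**Figure D3:**
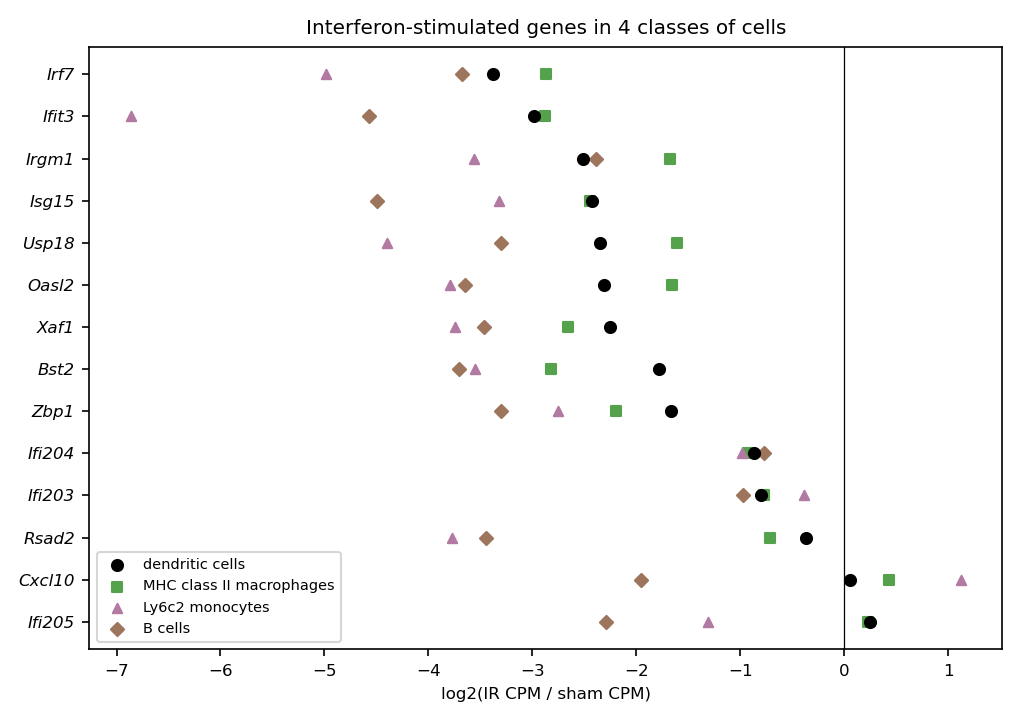
Interferon-stimulated genes in dendritic cells, MHC class II macrophages, Ly6c2 monocytes and B cells, as log2 of IR over sham CPM, each symbol 1 class. The dendritic cell values of Irf7 (-3.38) and Isg15 (-2.43) lie below 0 and those of the other classes for the same genes do too.

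Of 19 listed cytokines 4 were tested, and 2, Il1b and Osm, were higher and none lower in IR dendritic cells, where 9.87% of all genes were higher, and Osm passed the filter only through IR. Il1b, the cytokine made active by the inflammasome, stood at 1340 CPM in sham and 5327 CPM in IR dendritic cells (log2 1.99, 1.88 to 2.1). It was in 42 of 64 sham and 65 of 67 IR cells, with medians of 6 UMIs (0 to 71) and 59 UMIs (0 to 314). Per 10000 UMIs of the cell, which takes out the depth gap, the medians were 6.0 (0 to 90.6) in sham and 44.5 (0 to 181) in IR, so the ranges overlapped. In the arms the log2 ratio was 2.46 for Xcr1/Clec9a and 1.88 for Cd209a cells. Thinned, Il1b was in 60.3% and 85.1% of dendritic cells and in 6.04% and 38.6% of B cells, so the share rose in B cells as well. The part of background in the dendritic cell value was not tested. Nlrp3, the sensor of that inflammasome, was at 16.4 and 178 CPM (3.44, 2.48 to 4.59), Osm, oncostatin M, at 32.7 and 248 CPM (2.92, 2.23 to 3.70), and Tnf at 70.9 and 107 CPM (0.59, 0.05 to 1.16).

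In the chemokine list, Ccl17 and Ccl22 included, 8 of 13 tested genes were higher and 1 lower (all genes 9.87% and 5.8%), with a median of 1.08, against 1.04 in MHC class II macrophages, 3.15 in Ly6c2 monocytes and 0.69 in B cells. Of the higher genes Ccl17, Ccl22, Cxcl1, Cxcl2 and Cxcl3 passed the mean of 50 CPM only through IR. The lower gene, Ccl5, passed it only through sham, so the filter partly fixed this count and median. Ccl3 stood at 54.6 and 446 CPM (3.03, 2.50 to 3.62) and Ccl4 at 691 and 1464 CPM (1.08, 0.92 to 1.25), and the part of free RNA in these was not tested. Cxcl2, which draws neutrophils, had 11 and 2034 UMIs (log2 6.68, 5.84 to 7.69). In IR, however, Ly6c2 monocytes stood at 15632 CPM of Cxcl2 and B cells at 1022 CPM, and after thinning 55.2% of IR dendritic cells and 63.0% of IR B cells had it. An IR dendritic cell held a median of 4 Cxcl2 UMIs (0 to 367). The thinned Cxcl2 share in IR dendritic cells was thus no higher than in IR B cells. The same held for Cxcl3 (11.9% and 16.2%) and G0s2 (11.9% and 12.7%). Summed Cxcl2 without the top cell was 1737 CPM in IR dendritic cells, above the full B cell value. No background level was measured, and the part of free RNA in these genes was not tested.

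In the monocyte list 2 of 7 tested genes were higher and 1 lower in IR (median 0.63), the 2 passing the filter only through IR. In the cDC2 list 3 of 12 were higher and 2 lower (median -0.17), where 9.87% of all genes were higher and 5.8% lower. The genes below come from several lists or from the size of their ratio and form no group. Itgam, the CD11b integrin, was at 58.2 and 257 CPM (2.14). Its cells numbered 21 in sham and 49 in IR, not thinned although the IR cells were deeper. Cd14 was at 173 and 726 CPM (2.07, 1.76 to 2.39). F13a1, a coagulation factor subunit of monocytes, had 4 UMIs in sham and 224 in IR, and 26.9% of thinned IR dendritic cells kept it against 2.97% of B cells, 71.9% of MHC class II macrophages and 79.7% of Ly6c2 monocytes. Vcan, the matrix proteoglycan versican, had none in sham and 108 UMIs in IR, a log2 ratio of at least 4.32. Mgl2 went the other way in the Cd209a arm, from 1208 to 297 CPM (-2.02), and it was found in 36 of 41 sham and 8 of 43 IR cells there. In sham that arm had a median of 10 Mgl2 UMIs per cell (0 to 27) and in IR a median of 0 (0 to 71). Ccr2, the receptor that brings monocytes and cDC2 cells into tissue, was at 356 and 550 CPM (0.63, 0.39 to 0.87), short of the limit of 1.

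Of the remaining genes named by rule, several rested on 1 cell. Ptx3, a soluble pattern receptor, had 200 UMIs in IR, 95% of them in 1 cell, and Fabp5, a fatty acid carrier, had 612, 52.1% in 1 cell, yet it was in 26 of 67 IR cells and without the top cells its ratio was 4.35. Chil3, a chitinase-like protein of myeloid cells, had 5 and 183 UMIs with 58.5% in 1 cell and a ratio of 4.40 without the top cells. On the lower side, Tagln, Acta2, Tpm2 and Myl9, contractile genes of mural cells, and Gzma, a granzyme of killer cells, each had at least 96.1% of their sham UMIs in 1 cell. Broadly carried lower genes were Ube2l6, the conjugating enzyme for ISG15, with 66 UMIs in 40 sham cells and 9 in 9 IR cells (-3.72, -4.91 to -2.71), and Ifi27l2a, an interferon-inducible gene, at 3024 and 507 CPM (-2.58, -2.72 to -2.43). Phf11d was at -3.58, Pltp, a phospholipid transfer protein, at 340 and 43.4 CPM, and Cxx1a at -3.20.

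**Figure D4:**
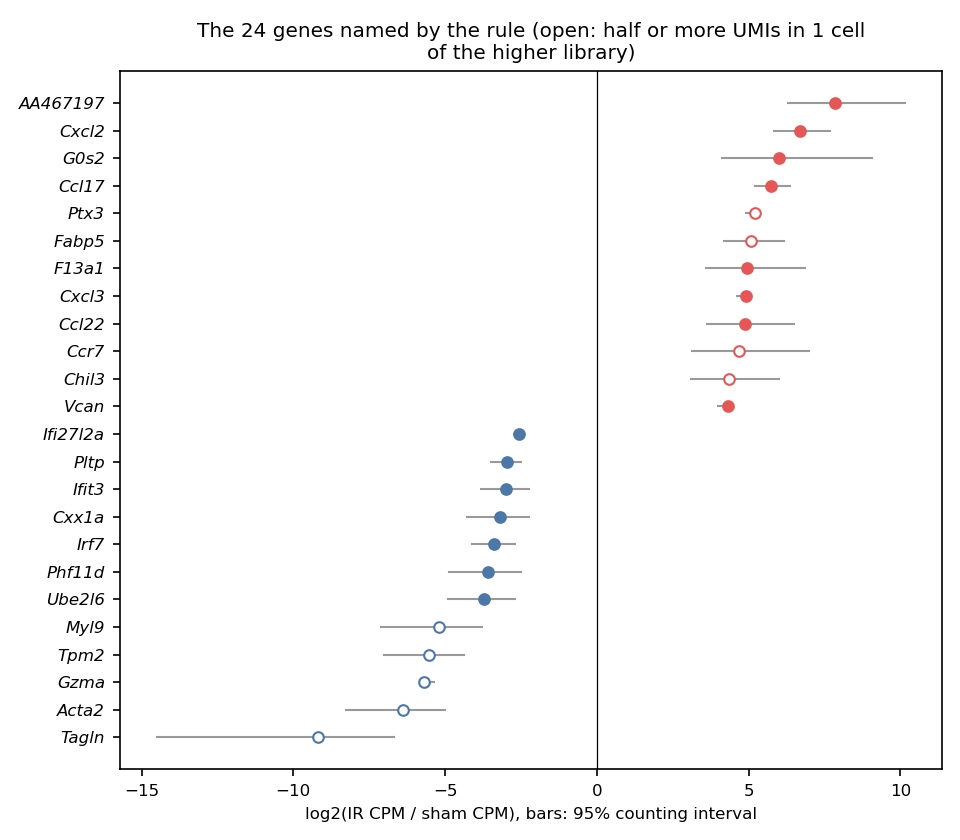
Genes named by the size rule, as log2 of IR over sham CPM in dendritic cells with 95% counting intervals. Ccl17 lies at 5.74 and Irf7 at -3.38, and the genes with most UMIs in 1 cell, such as Ptx3 and Tagln, are open circles.

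In the NF-kB list 4 of 13 tested genes were higher and none lower, where 9.87% of all genes were higher. All 13 ratios were above 0, with a median of 0.81 against 0.06 for all genes. Nfkb1, a subunit, was at 147 and 481 CPM (1.71, 1.37 to 2.07), Rel at 187 and 480 CPM (1.36, 1.05 to 1.68) and Nfkbia, the inhibitor, at 1077 and 2505 CPM (1.22, 1.09 to 1.35). Of the same list, 1 of 12 tested genes was higher in MHC class II macrophages (median 0.48) and 5 of 14 in Ly6c2 monocytes (median 0.78), none lower. In B cells none of 11 was higher and 1 lower (median 0.10). Among all genes 9.65%, 12.1% and 2.31% were higher in these classes. Rel moved by 0.11 in MHC class II macrophages, 0.28 in monocytes and -0.05 in B cells, and the difference between classes was not tested. In the apoptosis and survival list 5 of 10 were higher and none lower (median 1.04, all genes 9.87% and 5.8%), and 2 of the 5, Bcl2a1a and Bcl2l11, passed the filter only through IR. Bcl2l11, the killer protein BIM, was at 21.8 and 97.9 CPM (2.17, 1.30 to 3.17), Cflar, an inhibitor of caspase 8, at 60.0 and 151 CPM, and Bcl2a1b at 167 and 956 CPM. Bcl2a1a, Bcl2a1b and Bcl2a1d are near-identical copies, and how reads were split among them is uncertain.

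**Figure D5:**
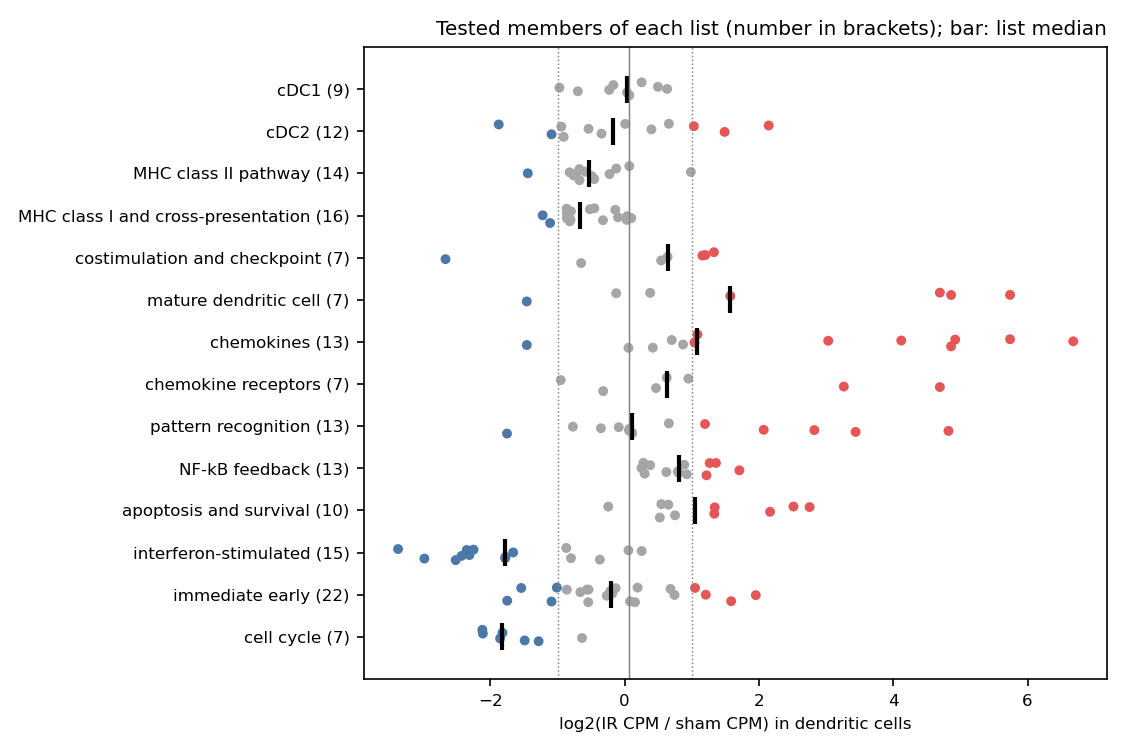
Each point is 1 tested gene of a list, as log2 of IR over sham CPM in dendritic cells, with the list median as a bar, the median of all genes as a solid line and the call limits dotted. The interferon-stimulated list has its median at -1.78 and the cell cycle list at -1.82, while the NF-kB list lies at 0.81.

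Stress genes that can respond to tissue handling moved in both directions. Of 22 immediate early genes 4 were higher and 4 lower (median -0.20), where 9.87% of all genes were higher and 5.8% lower. Fos was at 1958 and 582 CPM (-1.75, -1.90 to -1.60), Egr1 at 707 and 351 CPM and Ier3 at 311 and 1204 CPM (1.95, 1.72 to 2.19). In the heat shock list 2 of 11 tested genes were higher and none lower (median 0.11, all genes 9.87% and 5.8%). Hspa1b, an inducible chaperone, had that list's highest ratio, at 40.0 and 223 CPM (2.48, 1.84 to 3.18), and passed the filter only through IR. Hilpda, a hypoxia-inducible lipid droplet protein, was at 9.09 and 132 CPM (3.86), and Slc2a1, a glucose transporter, at 29.1 and 95.9 CPM (1.72), in a list with 4 of 13 higher (all genes 9.87%). Both were under 50 CPM in sham and passed the filter through IR. The part of dissociation in these values was not tested.

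Atf3, the transcription factor the study follows in macrophages, was at 646 CPM in sham and 437 CPM in IR dendritic cells (log2 -0.56, -0.77 to -0.36). It was detected in 53 of 64 and 58 of 67 cells, with medians of 4 UMIs (0 to 29) and 3 UMIs (0 to 51), so the ranges overlapped. Thinned to 2000 UMIs, it was in 55.6% of sham (42.5 to 68.1) and 35.8% of IR dendritic cells (24.5 to 48.5). Its ratio was 0.38 in MHC class II macrophages, 0.18 in Ly6c2 monocytes and -1.04 in B cells. Thinned, its share was lower in IR in all of these, at 77.9% and 68.0%, 52.4% and 44.9%, and 8.09% and 4.95%. Ifih1, the RNA sensor MDA5, was at 54.6 and 23.2 CPM and Apaf1, which starts the apoptosome, at 30.9 and 34.3 CPM. Both missed the mean of 50 CPM and were not compared. Axl, a receptor for dying cells, was at 72.7 and 88.8 CPM (0.29, -0.27 to 0.87). Mertk, a marker of resident macrophages, had no UMI in sham and 1 in IR dendritic cells.

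In the cell cycle list 6 of 7 tested genes were lower in IR, where 5.8% of all genes were, with a median of -1.82. Of the 6, 3 passed the filter only through sham, which partly fixed this count and median. Stmn1, which regulates microtubules, was at 276 and 63.6 CPM (-2.12, -2.57 to -1.69), Top2a, topoisomerase II, at 96.4 and 34.3 CPM (-1.49, -2.16 to -0.84) and Birc5, survivin, at 87.3 and 20.2 CPM (-2.11, -2.94 to -1.33). A few cells carried most counts of 5 of the listed genes, and Stmn1 was not among the 5. Cells with at least 3 of Mki67, Top2a, Birc5, Cdk1 and Ccnb2, a limit chosen after the values were seen, numbered 7 of 64 in sham (10.9%, 4.51 to 21.2) and 2 of 67 in IR (2.99%, 0.364 to 10.4). They held 164 of 178 UMIs of these genes in sham and 80 of 93 in IR, which the choice of cells by the same genes partly fixed. The shares of such cells overlap in counting error. Mki67 itself was found in 6.35% of thinned sham and 4.48% of thinned IR cells.

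Markers of several other cell types were present. Of the neutrophil list 3 of 7 genes were tested, each past the mean of 50 CPM only through IR, so that they had to be higher. They included S100a8 with 1 and 192 UMIs and S100a9 with 6 and 308 UMIs, both used by the rule, and without the top cell of each library 128 and 223 IR UMIs remained. IR B cells stood at 274 CPM of S100a8 and 515 CPM of S100a9. Of the macrophage list 1 of 3 tested genes was higher and none lower (median 0.15, all genes 9.87% and 5.8%). Apoe of that list had 103 and 586 UMIs without the top cell of each library (1.64). The red blood cell list had 1 tested gene, higher (1.17) and past the filter only through IR. The NK cell and mural cell lists had 1 each, lower and past it only through sham. B cell, T cell, endothelial and cardiomyocyte lists had no gene at a mean of 50 CPM. Of fibroblast genes Dcn, decorin, was tested at 149 and 396 CPM, with 76.8% of its sham UMIs in 1 cell, and without the top cells it had 19 and 209 UMIs (2.62). Siglech, the marker of plasmacytoid dendritic cells, had 2 UMIs in sham and 12 in IR. The part of these transcripts in the dendritic cell values was not tested.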

How the data were processed

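The deposited UMI counts per gene and barcode, 1 matrix per condition, were made by the authors with Cell Ranger on mm10 (both per the submitters' notes; version 3.1.0 in the file header) and were used as raw counts. Of 27998 entries, 121 carry a repeated symbol and were kept by identifier. Barcodes were kept with at least 200 genes and at most 30% mitochondrial UMIs, with no upper limit of genes. Doublets were not removed in the values reported; scores against simulated doublets with 50 neighbours served as an alternative. Dendritic cell counts were summed per library and given as CPM. Ratios carry exact conditional binomial 95% intervals, shares exact Clopper-Pearson ones. A count of 0 was set to 3 UMIs over the group, giving a bound. Genes with a mean of at least 50 CPM were compared, and a log2 ratio of at least 1 was called. Named genes were, in each direction, the 12 tested genes whose interval bound nearest to 0 was farthest from it (8 for the arms), leaving out mitochondrial, ribosomal, hemoglobin, unnamed and rule genes, plus the members of 32 lists. The members and lists were chosen with earlier results of these data known. For shares of cells, each cell was thinned to 2000 UMIs, leaving out shallower cells (1 sham and no IR dendritic cell, 479 sham and 32 IR B cells). B cells were barcodes with at least 3 UMIs of Cd79a, Cd79b and Ms4a1, at least 1% MHC class II UMIs and under 0.2% C1q UMIs. The interval code was tested on simulated data. Promoters came from RefSeq (GRCm38.p6), gene coordinates from GENCODE vM21 (GRCm38). Python 3.11.15, numpy 2.4.6, scipy 1.17.1, pandas 2.3.3, scikit-learn 1.9.0 and matplotlib 3.10.9 were used. Alternatives changed 1 choice at a time. A listed gene is counted in its list but not reported here by name.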

Additional observations from a re-analysis of the deposited data

How the results depend on the processing

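No paired analysis was possible because the barcodes of a condition carry no mark of the sample they came from, so no replicate could be left out either. With an upper limit of 2500 genes, the share of dendritic cells was 0.481% in sham and 0.225% in IR, 580 genes were higher and 312 lower, Ccl17 turned to -0.87, where the IR count of 0 was set to 3 UMIs, and the mature dendritic cell median to -0.34; only 11 IR cells remained. Leaving out barcodes with at least 3 UMIs of fibroblast, endothelial, mural, T and NK cell list genes together shrank the denominator too. It left 55 sham and 50 IR dendritic cells, 1.10% and 1.07% of the barcodes kept, so the order turned. Unthinned, the Xcr1/Clec9a arm held 31.3% and 28.4%. In the Cd209a arm alone 226 genes were lower. A minimum of 20 CPM gave 535 higher and 352 lower genes, one of 100 CPM gave 123 and 62, and no minimum gave 1441 and 1250. In the Xcr1/Clec9a arm alone Chil3 was at -0.69, Ifit3 at 0.31 and Mgl2 at 1.31. The cause of these moves was not tested. Of the gene values under alternatives, 433 moved by less than counting error, 96 by more, and 4 changed sign; of the list medians, 193, 16 and 1. Leaving out the top cell of each gene, an alternative chosen after seeing the data, gave 247 higher and 131 lower genes. Median-of-ratios scaling shifted all ratios by -0.057 and gave 215 and 161. With 64 and 67 cells, levels under 50 CPM rested on few UMIs and were limited by depth.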
